A study of Mus musculus with 34 samples.

Results

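Fibroblasts of the mouse lymph node were compared with fibroblasts of the omentum, the apron of fat that hangs in the abdominal cavity. The members are the 3 libraries labelled sLN fibroblasts and the 3 labelled omentum fibroblasts, 6 of the 34 libraries of a study that asked how transcription varies with tissue environment. Tissues were digested and cells were sorted as podoplanin-positive and PDGFRA-positive and as negative for CD45, CD31 and Epcam. PDGFRA-negative cells of the same gate were collected as mesothelial cells, the sheet that covers the abdominal organs. All 6 libraries carry the same 2 sort labels, PDGFRA-positive and GFP-negative. The GFP reporter, the first letter of sLN, and the genotype, strain, age, sex and number of animals are not given in the sources used here. Nothing says that replicates came from separate animals, so a p-value here reflects the spread among the libraries alone, which may be technical.

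Lymph node fibroblasts, often called fibroblastic reticular cells, build the scaffold on which lymphocytes move. They secrete the chemokines that place T and B cells and the cytokines that keep them alive. The omentum holds milky spots, clusters of lymphocytes and macrophages inside fat, whose stromal cells also make a B cell chemokine. Both stromas therefore support lymphocyte aggregates, in a dedicated lymphoid organ in one case and in a visceral fat depot in the other.

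Total counts were 28.7 M to 33.3 M per library in the lymph node and 35.2 M to 40.0 M in the omentum, within the 28.7 M to 42.3 M of the series. Values are given as CPM, counts scaled to a common library total, and differences as log2 fold changes, lymph node minus omentum, with their standard error (SE). Pdgfra, the receptor used for the sort, was at 1050, 817 and 1424 CPM in the 3 lymph node libraries and at 659, 646 and 766 CPM in the omentum. Across genes, log CPM correlated at a median of 0.967 between lymph node libraries, 0.968 between omentum libraries and 0.905 between the tissues, where genes are not independent replicates. The fibroblasts of the 7 other tissues (mesentery, epididymal, inguinal and brown adipose tissue, bone, pancreas and spleen) serve below as a reference.

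A gene was called at an adjusted p under 0.05 by edgeR's quasi-likelihood test with a log2 fold change of 1 or more in either direction. Of 25705 genes tested, 4558 were called (17.7%). Lymph node fibroblasts were higher for 2200 genes (8.56%) and omentum fibroblasts for 2358 (9.17%). A log2 fold change of 3 or more was reached by 518 and 899 of these. The libraries of the 2 tissues did not overlap for 4289 of the called genes, and for 37.4% of all genes tested. The median over all genes was -0.02. Without immunoglobulin genes and genes more abundant in pancreas fibroblasts or omentum mesothelial cells than in both groups, a count added after seeing the data, 1896 genes were higher in the lymph node and 936 in the omentum. Under a looser form of that rule, which left out genes under 20% of the level in those cells, the counts were 2186 and 2028. The omentum count thus depends on the form used. No matching rule was applied for cells of the lymph node, and both forms took out mostly omentum calls. The balance of the counts after either form is therefore not a comparison of the stromas. In bulk samples, fewer cells of a type and less RNA per cell cannot be told apart.

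**Figure D1:**
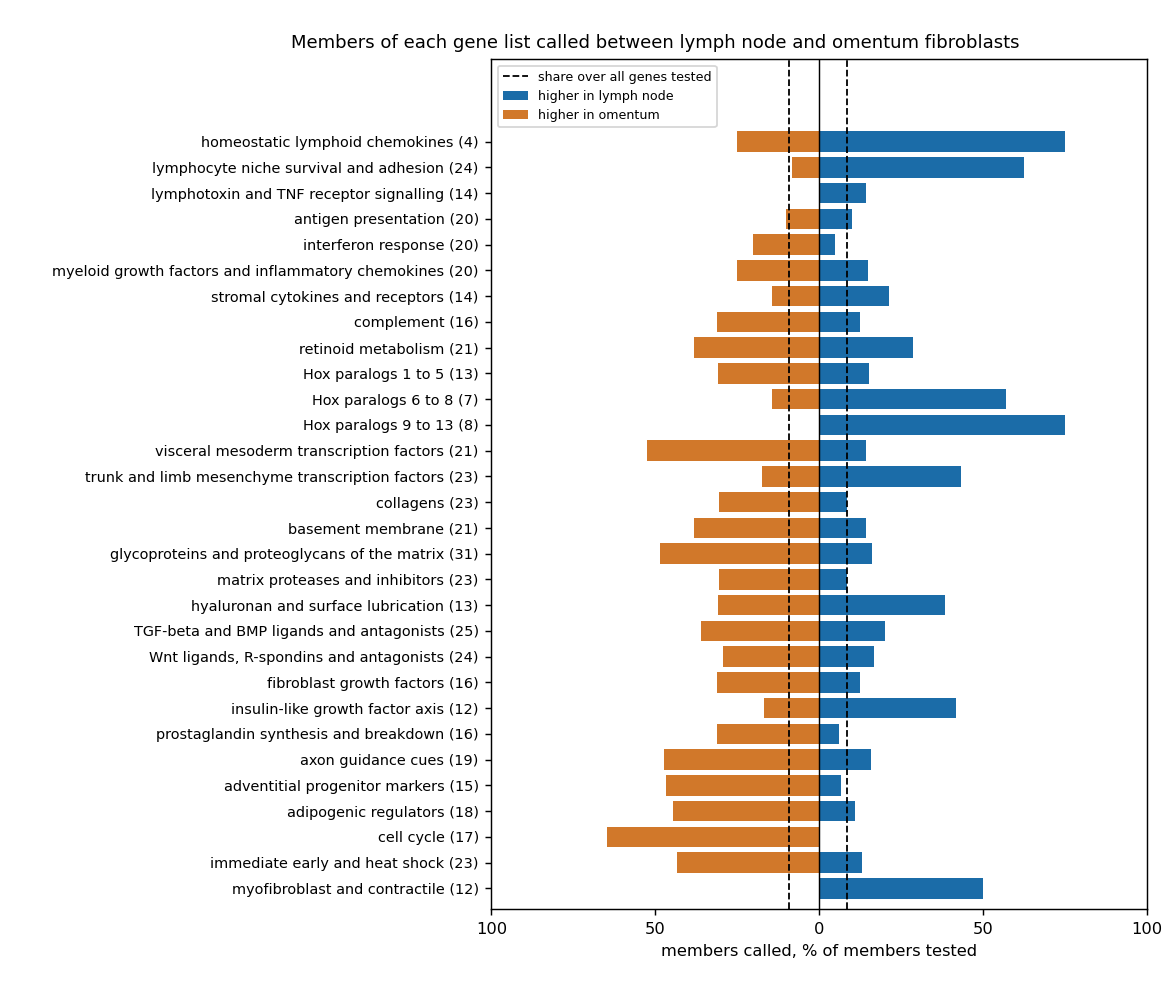
Percent of tested members of each gene list that were called higher in lymph node (right, blue) or in omentum fibroblasts (left, orange), with the number tested in parentheses. The lists of sort markers and cell type markers are not plotted. Dashed lines mark the shares over all genes tested, 8.56% and 9.17%; the chemokine, lymphocyte niche and Hox 9 to 13 lists reach furthest to the right and the cell cycle list furthest to the left.

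The chemokines that organise lymphoid tissue differed between the stromas in both directions. Of the 4 homeostatic chemokines tested, Ccl19, Ccl21a and Cxcl12 were higher in the lymph node and Cxcl13 in the omentum, and the list's median log2 fold change was 5.30. The upstream windows of 3 of these genes are shown because the 2 stromas differ in opposite directions at them. Each is the 250 bases before the start, read 5′ to 3′ on the gene's strand, from RefSeq on GRCm38.p6. Capitals mark a match to the RelB-type consensus, a 10-base pattern known from earlier work as preferred by RelB-containing NF-kappa-B dimers.

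Cxcl13, chr5:95956689-95956938, plus strand: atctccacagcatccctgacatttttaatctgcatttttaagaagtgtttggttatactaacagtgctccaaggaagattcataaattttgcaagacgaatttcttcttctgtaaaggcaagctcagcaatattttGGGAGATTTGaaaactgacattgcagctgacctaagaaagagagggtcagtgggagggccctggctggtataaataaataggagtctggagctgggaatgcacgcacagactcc

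Cxcl12, chr6:117168285-117168534, plus strand: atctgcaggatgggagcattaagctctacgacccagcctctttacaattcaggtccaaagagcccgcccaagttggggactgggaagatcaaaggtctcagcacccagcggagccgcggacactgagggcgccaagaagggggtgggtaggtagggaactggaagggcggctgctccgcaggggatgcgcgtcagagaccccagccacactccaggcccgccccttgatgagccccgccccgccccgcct

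Ccl21a, chr4:42773992-42774241, minus strand: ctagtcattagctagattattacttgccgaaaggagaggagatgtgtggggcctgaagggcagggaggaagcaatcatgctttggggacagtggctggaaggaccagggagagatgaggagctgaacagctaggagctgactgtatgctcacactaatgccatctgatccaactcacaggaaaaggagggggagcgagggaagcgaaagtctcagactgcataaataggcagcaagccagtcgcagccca

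The match lies at -114 to -105 of Cxcl13, counted back from the start, and there is no match in any of the windows of Ccl19, Ccl21a, Ccl21b and Cxcl12. The consensus occurs on either strand in 400 of 32851 mouse windows (1.22%). In all, 5 motifs were searched in 13 windows of the chemokine and contractile lists, and this match was picked out after the matches were seen. TATAAA on the gene's strand matched Cxcl13 and Ccn1 (7.59% of all windows), the NF-kappa-B consensus on either strand matched Myl9 and Des (7.25%), the CArG box on either strand matched Myl9 (1.47%), and CACGTG matched no window on either strand (6.02%). A match is a run of letters and not a measured site.

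Ccl19, a ligand of CCR7 that attracts T cells and dendritic cells, was at 5798, 7607 and 10583 CPM in the lymph node libraries and at 44.2, 32.7 and 40.7 CPM in the omentum. The groups were far apart, with a log2 fold change of 7.67 ± 0.85 (SE, n = 3 per group; adjusted p = 1.82e-07 by edgeR). Ccl19 lies on chromosome 4 at 42754525 to 42756577 of GRCm38, 16.3 kb from Ccl21a. Ccl21a, the other CCR7 ligand, was at 19986, 28176 and 29769 CPM against 4.43, 2.78 and 3.57 CPM, a log2 fold change of 12.82 ± 2.18 (adjusted p = 9.34e-05 by edgeR). Both have near-identical copies in the mouse genome, so the assignment of reads among the copies is uncertain, and the copy Ccl19-ps1 was also higher in the lymph node (9.46 ± 0.55). Ccl21a is also made by lymphatic endothelium, whose other 6 markers summed to 5.48 to 8.38 CPM in the lymph node and 8.03 to 11.8 CPM in the omentum. These members differed in both directions, with Stab2 higher in the lymph node (2.10 ± 0.58) and Lyve1 in the omentum (-4.99 ± 1.04). The Stab2 call was lost without lymph node library 1 or omentum library 2, and the markers' part in the Ccl21a result was not tested.

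Cxcl12, which retains CXCR4-bearing cells, was at 9208, 8932 and 5342 CPM in the lymph node and 1223, 783 and 1092 CPM in the omentum (2.92 ± 0.40). Cxcl13, the CXCR5 ligand that gathers B cells into follicles and milky spots, ran the other way. Its values were 1164, 664 and 1899 CPM in the lymph node and 3414, 2330 and 3695 CPM in the omentum, without overlap. The log2 fold change of Cxcl13 was -1.34 ± 0.49 and its adjusted p was 0.0485 by edgeR, so it only just passed. The call was lost without lymph node library 1 or 2, without omentum library 1 or 3, and with library totals in place of TMM scaling, with adjusted p-values up to 0.185 by edgeR and log2 fold changes from -1.78 to -1.04 over all alternatives.

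Against the mean of the 7 other fibroblast groups, 4262 genes (16.6%) were called for the lymph node and 2684 (10.4%) for the omentum. These comparisons share the 7 reference groups, so their values are only set side by side. Where a gene is placed above or below the other 7 groups in what follows, their mean is meant, and single groups can lie beyond it. Cxcl13 was 4.38 ± 0.30 above the reference in the lymph node and 5.72 ± 0.30 above it in the omentum on the log2 scale, and no other fibroblast group had a mean above 476 CPM. Ccl19 stood 9.07 ± 0.43 above the reference in the lymph node and 1.40 ± 0.45 in the omentum. For Ccl21a the value was 11.7 ± 1.002 in the lymph node, while in the omentum it was -1.16 ± 1.28 with an adjusted p of 0.627 by edgeR. The highest of the 7 groups for Ccl19 and Ccl21a was the spleen, the other lymphoid organ of the series, at 401 and 1544 CPM.

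Of 24 genes for lymphocyte survival and adhesion, 15 were higher in the lymph node and 2 in the omentum (8.56% and 9.17% of all genes), with a median log2 fold change of 1.44. Il7, the survival cytokine of naive T cells, was at 144, 184 and 110 CPM in the lymph node and 15.96, 8.97 and 13.99 CPM in the omentum (3.49 ± 0.35). Tnfsf13b, which encodes the B cell survival factor BAFF, was at 273, 261 and 295 CPM against 44.9, 38.3 and 48.4 CPM (2.65 ± 0.20). Its relative Tnfsf13, which encodes APRIL and sustains plasma cells, was one of the 2 genes higher in the omentum. Its values were 2.80, 2.43 and 1.67 CPM in the lymph node and 28.1, 16.5 and 20.8 CPM in the omentum (-3.23 ± 0.38). The stromas thus differed in opposite directions at the 2 related cytokines.

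Tnfsf11, the cytokine RANKL of marginal reticular cells, was at 7.35, 6.94 and 9.28 CPM in the lymph node and at 0.203, 0 and 0.117 CPM in the omentum (6.17 ± 0.59). Its decoy receptor Tnfrsf11b was the second gene higher in the omentum, at 0.953, 1.92 and 0.925 CPM against 19.4, 27.7 and 30.4 CPM (-4.33 ± 0.43). Ligand and decoy therefore differed in opposite directions between these libraries. For Tnfrsf11b the omentum level was under 20% of the mean of the sorted mesothelial cells of that tissue. The part of mesothelial cells in the Tnfrsf11b difference was not tested. Madcam1, an adhesion molecule of marginal reticular cells and mucosal venules, was at 4.67, 12.7 and 5.87 CPM in the lymph node and at most 0.224 CPM in the omentum (5.94 ± 0.69). Bst1, a surface enzyme of lymphoid stroma that supports B cell growth, reached 190, 252 and 167 CPM against 1.57, 0.646 and 0.966 CPM (7.58 ± 0.49). Grem1, a BMP antagonist of reticular cells near dendritic cells, differed by 6.35 ± 0.38.

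Vcam1 and Enpp2 were above the mean of the 7 other groups in both stromas. Vcam1, an adhesion molecule for lymphocyte integrins, was at 2472, 2413 and 1631 CPM in the lymph node and 813, 667 and 929 CPM in the omentum (1.44 ± 0.32), with 3.29 ± 0.20 and 1.85 ± 0.21 against the 7 other groups. Icam1 was at 537, 559 and 231 CPM against 421, 300 and 451 CPM. Its groups overlapped, and the 95% interval of the Icam1 difference ran from -0.59 to 0.95. Enpp2, the enzyme autotaxin that promotes lymphocyte entry and movement, was at 11070, 5134 and 13154 CPM in the lymph node and 6547, 5720 and 5292 CPM in the omentum. The fold change of Enpp2, 0.74 ± 0.25, stayed under the required size, but it was called at 1.05 without lymph node library 2, the lowest of the 3. Against the other 7 groups Enpp2 stood at 4.75 ± 0.15 in the lymph node and 4.01 ± 0.15 in the omentum. In all, 19 of the 24 genes were called above the other groups in the lymph node (9.51% of all genes) and 8 in the omentum (7.75%).

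**Figure D2:**
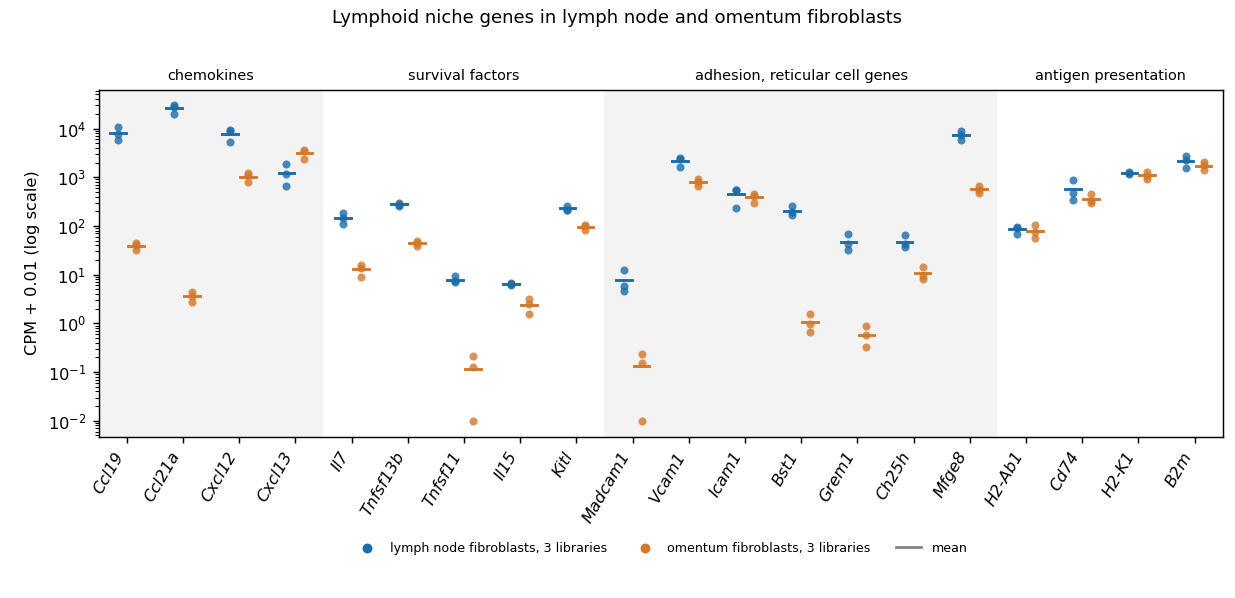
CPM plus 0.01 on a log axis for lymphoid niche genes in the 3 lymph node (blue) and 3 omentum (orange) fibroblast libraries, with the mean as a bar. Ccl19 and Ccl21a lie far higher in the lymph node, Cxcl13 lies higher in the omentum, and the antigen presentation genes at the right overlap.

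Lymphotoxin and TNF receptors and their signalling proteins act upstream of many of these genes. Of 14 such genes, 2 were higher in the lymph node and 0 in the omentum (8.56% and 9.17% of all genes), and the median log2 fold change was 0.29. Ltbr, the lymphotoxin beta receptor that drives reticular cell maturation, was at 44.8, 56.0 and 69.7 CPM in the lymph node and 56.5, 43.3 and 56.7 CPM in the omentum. The groups overlapped, with a 95% interval of -0.35 to 0.60. Map3k14, the kinase NIK of the noncanonical NF-kappa-B pathway, was higher in the lymph node, at 87.5, 98.4 and 78.4 CPM against 32.1, 24.7 and 24.5 CPM (1.70 ± 0.26). So was Traf2, the adaptor that keeps NIK low, at 145, 107 and 195 CPM against 37.5, 36.0 and 36.1 CPM (2.03 ± 0.22). Relb, the subunit activated by NIK, was not called between the stromas (0.51 ± 0.26) and stood above the other 7 groups in both (1.74 ± 0.18 and 1.23 ± 0.19).

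Of 20 antigen presentation genes, 2 were higher in each tissue, near the shares over all genes. Against the other 7 groups 14 were higher in the lymph node (9.51% of all genes) and 12 in the omentum (7.75%). H2-Ab1, a chain of MHC class II, was at 91.7, 96.3 and 69.8 CPM in the lymph node and 105, 56.2 and 75.0 CPM in the omentum. The 95% interval of the H2-Ab1 difference ran from -0.90 to 1.16. A difference of the required size toward the lymph node was therefore not excluded, and the lower end came near that size toward the omentum. Cd74, the MHC class II chaperone, was at 475, 344 and 879 CPM against 463, 326 and 296 CPM (0.65 ± 0.75). The markers of macrophages and dendritic cells, which also express these genes, summed to 111 to 122 CPM in the lymph node and 159 to 180 CPM in the omentum. Cd14, at 94.6, 87.3 and 100.1 CPM in the lymph node, made up most of the sum there and was the 1 marker higher in that tissue (1.52 ± 0.28). Of the 12 markers tested 7 were higher in the omentum, among them C1qb (-5.20 ± 1.21), and the median log2 fold change was -2.93. The part of these cells in the result was not tested. Of 20 interferon response genes 1 was higher in the lymph node and 4 in the omentum (8.56% and 9.17% of all genes). The omentum count rose to 9 without omentum library 2.

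Inflammatory chemokines and cytokines differed in both directions. Of 20 myeloid growth factors and inflammatory chemokines, Il6, Cxcl1, Cxcl2, Cxcl3 and Cxcl10 were higher in the omentum and Cxcl9, Cxcl16 and Cx3cl1 in the lymph node. These are 25% and 15% of the list, beside 9.17% and 8.56% of all genes. The count for the omentum was 4 without lymph node library 3, 8 with RLE size factors and 9 without a filter on low counts or with only these 6 libraries. Il6, a cytokine of B cell maturation and acute inflammation, was at 76.2, 57.2 and 44.4 CPM in the lymph node and 1394, 891 and 1621 CPM in the omentum (-4.46 ± 0.55). Cxcl1, a neutrophil chemoattractant, was at 1443, 541 and 779 CPM against 4511, 3517 and 4661 CPM (-2.20 ± 0.46). Both were above the other 7 groups in the omentum (3.73 ± 0.29 and 2.76 ± 0.28) and not called in the lymph node (-0.72 ± 0.39 and 0.56 ± 0.32). The call of Cxcl10 was lost without lymph node library 3 (log2 fold change -1.28).

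Other chemokines were higher in the lymph node. Cxcl9, which attracts activated T cells, was at 66.7, 63.3 and 135 CPM in the lymph node and 17.7, 14.6 and 18.6 CPM in the omentum (2.38 ± 0.33). Cxcl16, a membrane-bound ligand of CXCR6, was at 447, 332 and 404 CPM against 84.2, 60.1 and 80.1 CPM (2.40 ± 0.21). Il33, an alarmin of stromal nuclei, was higher in the lymph node by 1.503 ± 0.241. Csf1, the macrophage growth factor, was at 327, 353 and 161 CPM in the lymph node and 428, 378 and 489 CPM in the omentum. The 3 omentum values of Csf1 lay above the lymph node values, but the difference was not called (-0.62 ± 0.35, adjusted p = 0.208 by edgeR). Ccl2 was also not called (-0.51 ± 0.51) and stood above the other groups in both tissues (2.21 ± 0.33 and 2.72 ± 0.32).

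Of 16 prostaglandin genes, the synthesis enzymes Ptgs1, Ptgs2, Ptges and Ptgis and the receptor Ptger3 were higher in the omentum (9.17% of all genes) and Ptgir, the prostacyclin receptor, in the lymph node (8.56%). The other 10 were not called, and the median log2 fold change was -0.33. Ptgs2, the inducible cyclooxygenase, was at 159, 62.8 and 91.0 CPM in the lymph node and 1012, 1049 and 1392 CPM in the omentum (-3.46 ± 0.49). Ptgis, prostacyclin synthase, was at 5.04, 5.25 and 3.98 CPM against 430, 381 and 382 CPM (-6.38 ± 0.23). The 7 other fibroblast groups had Ptgis means of 120 to 621 CPM, so the lymph node was the low side here.

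Immediate early genes, which respond within minutes to growth factors and to tissue handling, were divided. Of 23 immediate early and heat shock genes 10 were higher in the omentum and 3 in the lymph node (9.17% and 8.56% of all genes). The lymph node count, near that share, fell to 0 without omentum library 2 or 3 and to 1 without lymph node library 3. The omentum count ran from 8 to 11 over the alternatives, with 8 without lymph node library 2. Nr4a2, an inducible nuclear receptor, was at 1.23, 1.67 and 2.38 CPM in the lymph node and 237, 192 and 286 CPM in the omentum (-7.09 ± 0.80). Fos, Egr1 and Jun were not called, with log2 fold changes of 0.21 ± 0.27, 0.25 ± 0.25 and 0.43 ± 0.46. For Fos, lymph node library 2 was at 1468 CPM beside 4969 and 5804 CPM in libraries 1 and 3, while the omentum ran from 3284 to 3793 CPM. The part of tissue handling in the omentum genes was not tested.

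Cell cycle genes were low in lymph node fibroblasts. Of 17 genes 11 were higher in the omentum and 0 in the lymph node (9.17% and 8.56% of all genes), and 7 were called without lymph node library 3. Mki67, a marker of cycling cells, was at 2.55, 0.903 and 0.249 CPM in the lymph node and 12.8, 7.38 and 8.58 CPM in the omentum (-2.93 ± 0.60). The 7 other groups had Mki67 means from 4.72 to 14.04 CPM, and 11 of the 17 genes were called below them in the lymph node (7.07% of all genes) against 0 in the omentum (2.69%).

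**Figure D3:**
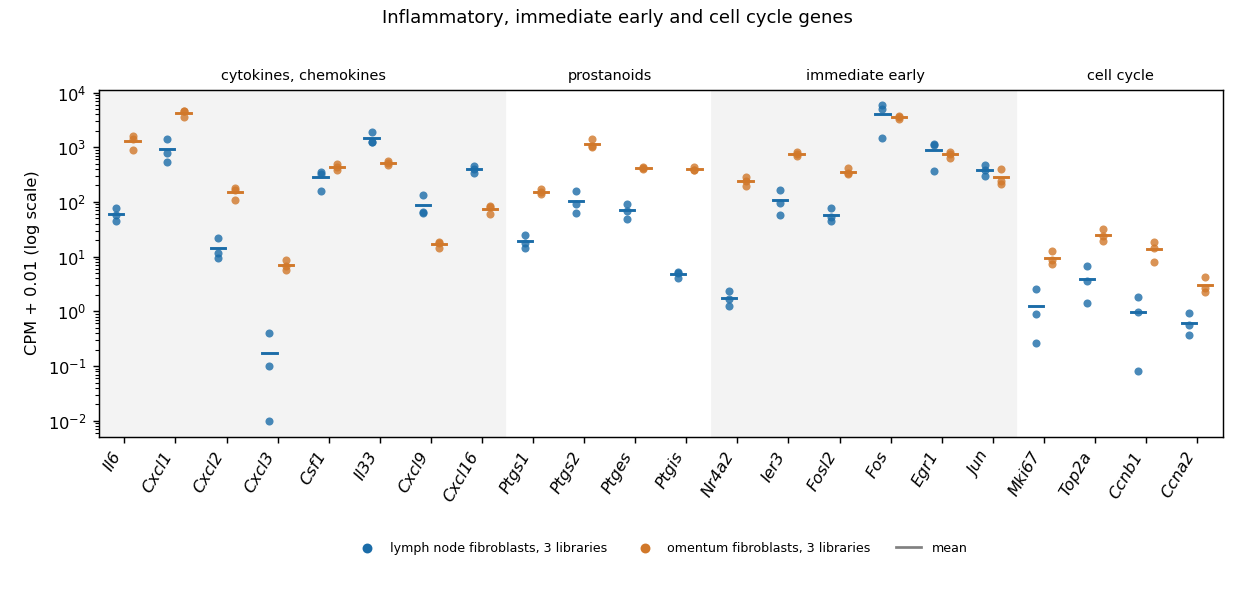
CPM plus 0.01 on a log axis for inflammatory, prostanoid, immediate early and cell cycle genes in the 3 lymph node (blue) and 3 omentum (orange) libraries, with the mean as a bar. Il6, Cxcl1, the prostanoid enzymes and Nr4a2 lie higher in the omentum without overlap, whereas Fos, Egr1 and Jun overlap.

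Transcription factors that record body position differed widely. Of 21 visceral mesoderm factors 11 were higher in the omentum and 3 (Foxf1, Nr2f1 and Nr2f2) in the lymph node (9.17% and 8.56% of all genes). The log2 fold change of Nr2f1 ran from 6.19 to 6.78 over the alternatives. Wt1, a factor of the embryonic coelomic lining and its derivatives, was at 0.676, 0.790 and 0.0356 CPM in the lymph node and 183, 194 and 189 CPM in the omentum (-8.49 ± 0.46). Tcf21, a factor of visceral fibroblasts, was at 0.676, 0 and 0.0356 CPM against 138, 112 and 169 CPM (-9.16 ± 0.66). Isl1, a LIM homeodomain factor, was at 0.246, 0.0565 and 0 CPM against 73.2, 64.3 and 76.2 CPM (-9.37 ± 0.58). The omentum values were narrow in range and the lymph node values near 0. Barx1, a factor of stomach mesenchyme, had no counts in the lymph node and 3.57, 2.34 and 3.51 CPM in the omentum, at least 99.5-fold higher from 3 counts over the lymph node libraries.

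Gata6, also on the visceral mesoderm list, was not called. Its values were 35.5, 25.1 and 76.3 CPM in the lymph node and 38.5, 30.0 and 24.7 CPM in the omentum, with a 95% interval of -0.01 to 1.11. Both stromas were above the other 7 groups for Gata6 (2.50 ± 0.19 and 1.95 ± 0.20). Nkx2-3, a factor of spleen and gut stroma, was at or under 0.0585 CPM in all 6 libraries.

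Factors of trunk and limb mesenchyme leaned to the lymph node, with 10 of 23 higher there and 4 (Tbx4, Six2, Alx4 and Dlx5) in the omentum. The shares over all genes were 8.56% and 9.17%. Tbx15, a factor of dermis, limb and subcutaneous fat, was at 46.2, 40.1 and 40.7 CPM in the lymph node and 0.557, 0.945 and 0.468 CPM in the omentum (5.99 ± 0.46). Meox2, a factor of somite and limb mesoderm, was at 165, 142 and 121 CPM against 13.4, 9.99 and 12.4 CPM (3.58 ± 0.35). Prrx1, a limb bud factor, was at 141, 115 and 125 CPM against 64.3, 54.9 and 70.9 CPM. The fold change of Prrx1, 1.005 ± 0.220, lay on the required size and its call was lost in 7 of 15 alternatives, among them without lymph node library 1 and without omentum library 2.

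Hox genes, whose paralog number follows the axis from head to tail, were listed by paralog, and no test compared the lists. Of 16 genes of paralogs 9 to 13, 8 passed the filter on low counts, 6 of these (all paralogs 9 and 10) were higher in the lymph node and 0 in the omentum. Hoxc10 was at 12.5, 9.23 and 11.9 CPM in the lymph node and at 0, 0 and 0.0585 CPM in the omentum (9.04 ± 0.72). Hoxa10 was at 7.87, 6.10 and 6.90 CPM against 0.0253, 0.0746 and 0 CPM (7.49 ± 0.70). Of 7 genes tested of paralogs 6 to 8, 4 were higher in the lymph node and 1, Hoxb6, in the omentum. Of 13 genes tested of paralogs 1 to 5, 4 were higher in the omentum and 2, Hoxd3 and Hoxd4, in the lymph node. Over all genes tested, 8.56% were higher in the lymph node and 9.17% in the omentum. Hoxb5 was at 0.307, 0.169 and 0.213 CPM in the lymph node and 5.22, 3.53 and 5.39 CPM in the omentum (-4.34 ± 0.51).

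**Figure D4:**
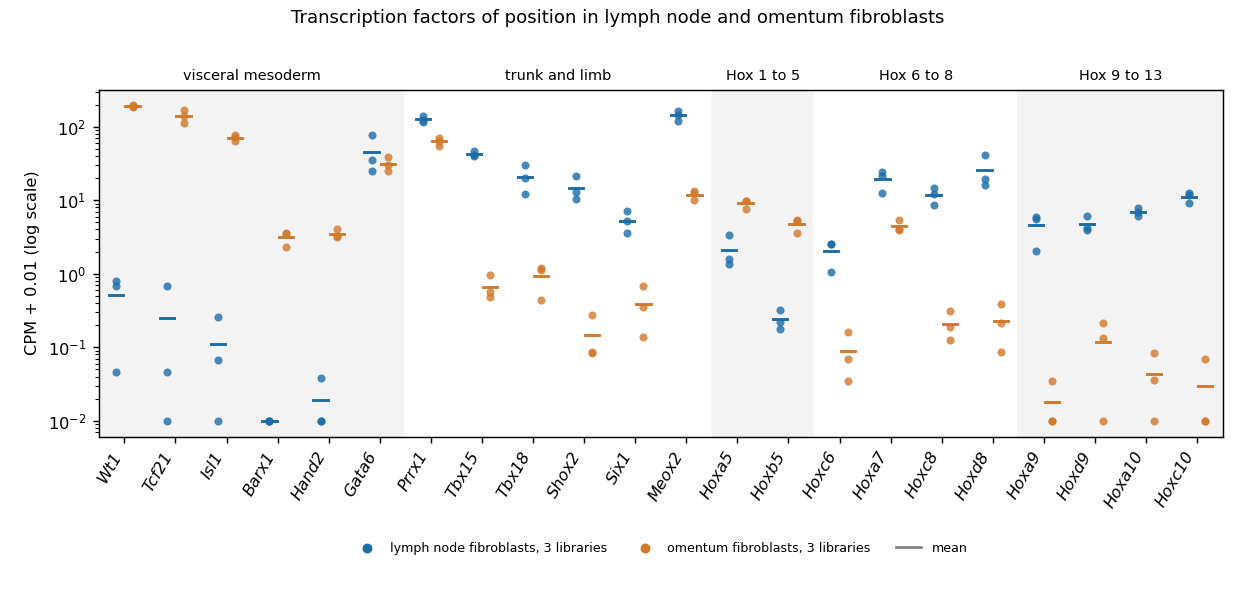
CPM plus 0.01 on a log axis for transcription factors of position in the 3 lymph node (blue) and 3 omentum (orange) libraries, with the mean as a bar. Among the members plotted, visceral factors other than Gata6 and Hoxa5 and Hoxb5 lie higher in the omentum. The plotted trunk and limb factors and posterior Hox genes lie higher in the lymph node. Called members that go the other way are not plotted (Foxf1, Nr2f1, Nr2f2, Hoxd3, Hoxd4, Tbx4, Six2, Alx4, Dlx5 and Hoxb6).

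Retinoid metabolism, which turns vitamin A into retinoic acid, differed in both directions. Of 21 genes 8 were higher in the omentum and 6 in the lymph node (9.17% and 8.56% of all genes). The lymph node count ran from 3 to 8 over the alternatives, with 3 for only these 6 libraries, without lymph node library 3 or without omentum library 2, and 8 without lymph node library 2. Aldh1a2, an enzyme that makes retinoic acid, was at 0.984, 0.452 and 0 CPM in the lymph node and 544, 476 and 495 CPM in the omentum (-9.98 ± 0.63). Aldh1a1 and Aldh1a3, enzymes of the same step, were also higher in the omentum (-1.75 ± 0.22 and -2.27 ± 0.24). Cyp26b1, which breaks retinoic acid down, was higher in the lymph node, at 43.3, 64.6 and 41.7 CPM against 3.01, 2.19 and 3.57 CPM (4.10 ± 0.38). Adh1 and Adh7, alcohol dehydrogenases that can oxidise retinol, were higher in the lymph node as well (1.08 ± 0.27 and 2.52 ± 0.37), so enzymes on the path to retinoic acid lay on both sides. The call of Adh1 was lost in 8 of 15 alternatives, among them without lymph node library 3, omentum library 1 or omentum library 2.

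The matrix was richer in the omentum for most called genes. Of 31 glycoproteins and proteoglycans 15 were higher in the omentum and 5 in the lymph node, and of 23 collagens 7 and 2. The shares over all genes were 9.17% and 8.56%. Over the alternatives the omentum counts ran from 13 to 17 for the glycoproteins and proteoglycans and from 5 to 8 for the collagens. Against the 7 other groups, 15 collagens were lower in the lymph node (7.07% of all genes) and 9 in the omentum (2.69%). Col3a1, fibrillar collagen III, was at 3305, 3342 and 2331 CPM in the lymph node and 8354, 6181 and 8490 CPM in the omentum (-1.36 ± 0.26). Col1a1, the main chain of collagen I, overlapped at 636 to 874 and 469 to 943 CPM (0.08 ± 0.37). Tnc, the glycoprotein tenascin C, went the other way, at 283, 278 and 199 CPM against 3.44, 3.58 and 3.81 CPM (6.13 ± 0.87). Lama5, a laminin chain that guides lymphocytes in lymph nodes, was at 36.2, 30.3 and 39.8 CPM in the lymph node and 2.96, 1.37 and 2.40 CPM in the omentum (3.98 ± 0.50).

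Hyaluronan genes were divided, with 5 of 13 higher in the lymph node and 4 in the omentum (8.56% and 9.17% of all genes). Has1, a hyaluronan synthase, was at 47.2, 32.8 and 21.8 CPM in the lymph node and 3574, 2898 and 4389 CPM in the omentum (-6.74 ± 0.66). Tnfaip6, an inducible protein that modifies hyaluronan, was at 290, 253 and 120 CPM against 3736, 3553 and 4613 CPM (-4.17 ± 0.43). Both rank among the inflammation-induced genes of fibroblasts.

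Of 12 contractile genes 6 were higher in the lymph node and 0 in the omentum (8.56% and 9.17% of all genes). The lymph node count was 4 without omentum library 2. Acta2, smooth muscle actin, was at 348, 421 and 206 CPM in the lymph node and 37.3, 33.8 and 34.9 CPM in the omentum (3.20 ± 0.65). Tagln, an actin-binding protein, was at 198, 403 and 96.5 CPM against 11.4, 10.5 and 13.1 CPM (4.32 ± 0.62). Myh11, the smooth muscle myosin, was not called (-0.28 ± 0.55). The call of Des, the intermediate filament desmin, was lost without lymph node library 2 or omentum library 2.

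Mural cells, the contractile cells on vessels, share several of these genes. Of their 8 markers 6 were higher in the lymph node and 1, Higd1b, in the omentum (-4.64 ± 1.08, at most 0.684 CPM). The shares over all genes were 8.56% and 9.17%. The summed level of the 8 markers was 1114 to 1366 CPM in the lymph node and 92.1 to 116 CPM in the omentum. Rgs5, a pericyte marker, was at 523, 376 and 576 CPM against 4.69, 4.62 and 5.68 CPM (6.62 ± 0.66). Cspg4, the mural marker NG2, was at 1.97, 1.67 and 1.6001 CPM in the lymph node and was not called (1.17 ± 0.59). The part of mural cells in the contractile result was not tested.

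Called genes of adventitial progenitors and of fat were mostly higher in the omentum. Of 15 adventitial markers 7 were higher in the omentum and 1 in the lymph node (9.17% and 8.56% of all genes). Both stromas were low for them. Against the 7 other groups 13 were lower in the lymph node (7.07% of all genes) and 7 in the omentum (2.69%), with 0 and 1 higher. Cd55, a complement inhibitor on these cells, was at 41.7, 58.7 and 38.8 CPM in the lymph node and 693, 672 and 709 CPM in the omentum (-3.90 ± 0.20). Pi16 and Dpp4, further progenitor markers, were not called between the stromas (-0.66 ± 0.29 and -0.65 ± 0.22), and all 7 other groups had higher means than either. Of 18 adipogenic regulators 8 were higher in the omentum and 2 in the lymph node (9.17% and 8.56% of all genes). Pparg, the master regulator of fat cells, was at 2.80, 0.932 and 1.56 CPM against 16.3, 18.2 and 24.2 CPM (-3.48 ± 0.57).

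The 12 largest differences on the lymph node side, by the naming rule, which leaves out markers of other cell types such as Ccl21a, were Serpina10, Sohlh2, Dsc3, Ccl19-ps1, Sostdc1, Hoxc10, Crip3, Adamts13, Akr1cl, Ip6k3, Apol11a and Ccl19. Serpina10, a protease inhibitor of coagulation, was at 454, 641 and 449 CPM in the lymph node and 0.152, 0.646 and 0.498 CPM in the omentum (10.21 ± 0.51). Dsc3, the desmosomal protein desmocollin 3, was at 710, 946 and 436 CPM against 1.77, 0.298 and 0.0293 CPM (9.92 ± 0.81). Sostdc1, a BMP and Wnt antagonist, was at 190, 112 and 295 CPM against 0.279, 0.124 and 0.498 CPM (9.39 ± 0.68). The highest mean among the 7 other groups was 5.795 CPM for Serpina10, 21.0 CPM for Dsc3 and 7.02 CPM for Sostdc1.

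On the omentum side the same rule gave mostly genes of the exocrine pancreas, such as Amy2a1, Cela3b, Gp2, Try5, Rnase1 and Clps, and the immunoglobulin segment Igkv12-89. Amy2a1, pancreatic amylase, had no counts in the lymph node and was at 590, 84.7 and 769 CPM in the omentum, with a mean of 10733 CPM in pancreas fibroblasts. The 8 acinar markers summed to 0.469 to 0.750 CPM in the lymph node, 896 to 3410 CPM in the omentum and 33430 to 115700 CPM in pancreas fibroblasts. The 11 B and plasma cell markers summed to 41.4 to 148 CPM in the lymph node and 1258 to 2204 CPM in the omentum. Of these, 6 were called higher in the omentum (9.17% of all genes), and DESeq2 called 2. These transcripts stand in all 3 omentum libraries, and their part in the omentum results was not tested.

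Mesothelial markers moved the same way. Of 11, 10 were higher in the omentum and 0 in the lymph node (9.17% and 8.56% of all genes). The 11 summed to 15.4 to 25.6 CPM in the lymph node, 485 to 818 CPM in the omentum and 10690 to 11490 CPM in omentum mesothelial cells. Upk3b, a defining mesothelial gene, was at 262, 200 and 158 CPM in omentum fibroblasts, 5.35% of the mesothelial mean. Krt19 stood at 5.06%, Lrrn4 at 9.41% and Nkain4 at 14.6% of that mean. Wt1 in omentum fibroblasts stood at 98.3% of its mesothelial mean and Aldh1a2 at 99.01%. For Tnfsf13 the figure was 37.5%, for Cxcl2 41.6% and for Tnfrsf11b 10.2%. The other mesothelial markers are not given as such percentages, and the part of mesothelial cells in these genes was not tested.

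**Figure D5:**
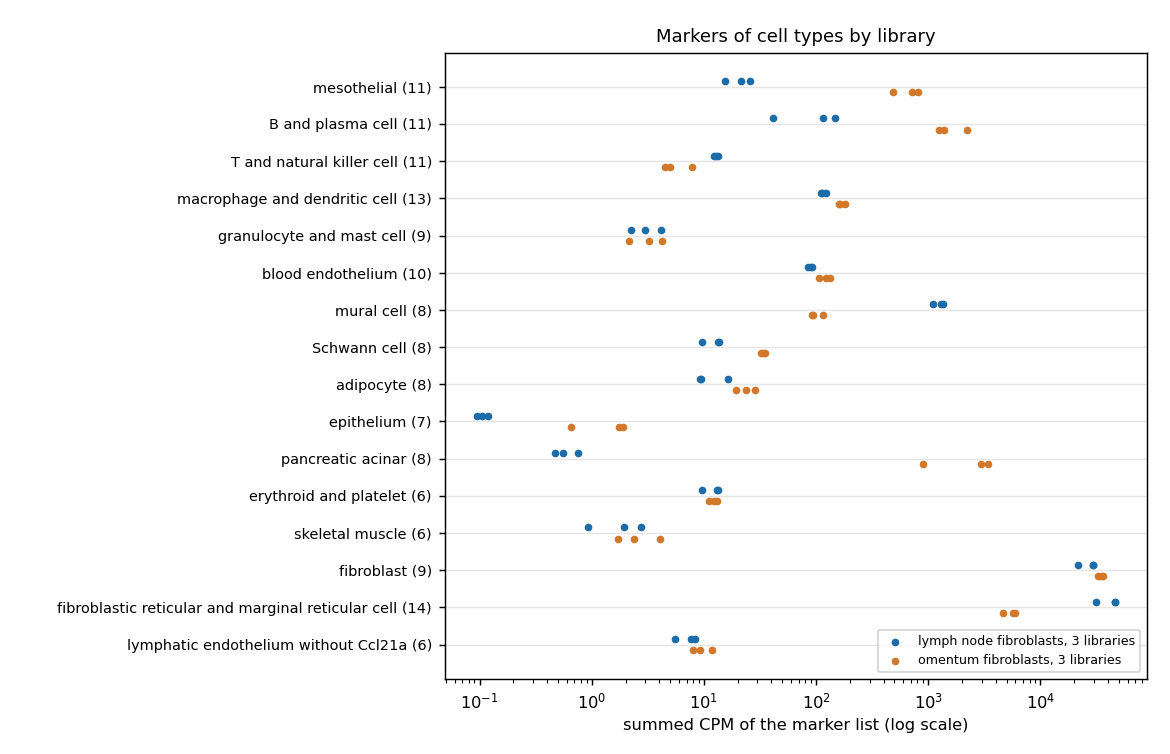
Summed CPM of each cell type's markers on a log axis in the 3 lymph node (blue) and 3 omentum (orange) libraries, with the number of genes in parentheses and lymphatic endothelium without Ccl21a. Mesothelial, B and plasma cell and acinar markers lie higher in the omentum, and mural and reticular cell markers lie higher in the lymph node.

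Outside immunoglobulin genes and genes under 20% of their mean in pancreas fibroblasts or omentum mesothelial cells, the 12 largest on the omentum side were Tmem108, Cryaa, Aldh1a2, Vxn, Fcna, Hp, Isl1, Tcf21, Gatm, Gabra4, Ugt1a7c and Wt1. This set was chosen after the values were seen. Hp, the acute phase protein haptoglobin, was at 4.79, 0.395 and 0.569 CPM in the lymph node and 1431, 1347 and 1465 CPM in the omentum (-9.52 ± 0.74), against 2.003 CPM in omentum mesothelial cells. Gatm, an enzyme of creatine synthesis, was at 0.676, 0.113 and 0.356 CPM against 259, 171 and 207 CPM (-9.13 ± 0.65). Ugt1a7c, a glucuronidation enzyme, was at 1.26, 0.536 and 0.604 CPM against 334, 304 and 338 CPM (-8.66 ± 0.35), and omentum fibroblasts held it at 116% of the mesothelial level.

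As a check of the labels, 14 markers of fibroblastic and marginal reticular cells summed to 31090 to 45980 CPM in the lymph node and 4624 to 5930 CPM in the omentum. Ccl21a and Ccl19, already reported above, made up most of the lymph node sum, with means of 25977 and 7996 CPM. Between the stromas 10 of the 14 were higher in the lymph node, 1 (Cxcl13) in the omentum, and 3 were not called. Against the 7 other groups 12 of the 14 were higher in the lymph node (9.51% of all genes) and 7 in the omentum (7.75%). Pdpn, the podoplanin of the sort, was at 175, 196 and 364 CPM in the lymph node and 376, 340 and 386 CPM in the omentum. Ptprc, which encodes CD45 and was sorted against, was at 0.427 to 4.43 CPM and 3.44 to 5.10 CPM. Pecam1, which encodes CD31 and was also sorted against, was at 1.38, 2.68 and 2.24 CPM in the lymph node and 9.32, 11.98 and 16.7 CPM in the omentum. It was the 1 sort marker called (-2.59 ± 0.86), and the call was lost without any 1 lymph node library or without omentum library 3. Of 10 blood endothelial markers 5 were higher in the omentum and 1 in the lymph node (9.17% and 8.56% of all genes). The omentum count fell to 2 without lymph node library 1 and to 3 without lymph node library 3 or omentum library 3.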

How the data were processed

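Polyadenylated RNA of 34 mouse libraries was sequenced, 3 of them from lymph node and 3 from omentum fibroblasts. The authors deposited whole-number counts per gene for each library, and per the file headers these are reads with a unique alignment to gene models. The submitters' processing notes name Salmon, without a version, and the build GRCm38, and which step gave the counts is not given in the sources used here. Gene positions are from GENCODE on GRCm38, counted from 1.

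All 34 libraries entered 1 fit with a coefficient per group, using edgeR 4.0.16 in R 4.3.3 (TMM scaling, filterByExpr with a minimum count of 10, robust quasi-likelihood F-test, Benjamini-Hochberg adjustment over 25705 genes). CPM and log2 values were computed from the deposited counts, not by the authors. Marker sums use unscaled totals. SE is the absolute log2 fold change divided by the square root of F, and 95% intervals use the normal approximation. Folds against no counts are bounds from 3 counts and, like all intervals, cover counting error or library spread only.

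The libraries, gene lists and naming rule were chosen with earlier results of these data known. By the rule the text names sort markers, the 12 largest calls per direction (mean of at least 10 CPM, no overlap of libraries, not a marker of another cell type), of each list at most 4 genes, those lowest in adjusted p, and a fixed set of stromal genes. Other list members were named after their values were seen, and part of the named genes was left out for length. Replicate pairs were checked for copies, and chi-square per degree of freedom was 24.8 to 180.1. On simulated counts for this comparison (24358 genes) the test recovered 2, 9, 35 and 47 of 50 genes changed 1.5-, 2-, 4- and 8-fold, with 6 false calls. Alternatives were RLE and unscaled totals, no filter, DESeq2 1.42.0, fewer libraries, non-robust estimation, no minimum fold, a replicate block and leaving out each library. In promoter windows an exact form of the RelB-type motif was searched before the consensus, with the same match among the genes searched.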

Additional observations from a re-analysis of the deposited data

How the results depend on the processing

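Over the alternatives with the same thresholds, 3610 to 5060 genes were called between lymph node and omentum fibroblasts, against 4558. Leaving out each of the 6 libraries gave 3610 to 4414. With no minimum fold change 6417 genes passed, 3496 of them higher in the lymph node and 2921 in the omentum. No call changed direction. The share of calls higher in the lymph node was 48.3%, and 39.3% without a filter on low counts, 39.6% with DESeq2 and 42.5% with RLE. Leaving out 1 library gave 41.0% to 53.6%, with the lymph node in the majority without its library 1 (53.6%) or 2 (51.6%). Of 295 genes tabulated, 245 kept their call in every setting that tested them (11 to 15 settings a gene) and 50 changed it in at least 1; the cause was not tested.

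Acinar, mesothelial and immunoglobulin transcripts were set aside in 2 ways, both chosen after seeing the data. The first left out immunoglobulin genes and genes with a higher mean in pancreas fibroblasts or omentum mesothelial cells than in both groups, which left 2832 calls, 1896 higher in the lymph node and 936 higher in the omentum. After that count was seen the rule was loosened to genes under 20% of those means, which left 4214 calls, 2186 and 2028. The omentum count thus depends on the rule, which changes which genes are counted and not their fit. Both forms took out mostly omentum calls and had no counterpart for the lymph node, so the balance left by them does not compare the stromas. The set of 12 omentum genes named outside it rests on the looser form.

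Replicate numbers are shared between the groups. Deviations of same-numbered libraries correlated at 0.213, 0.182 and -0.021 for numbers 1, 2 and 3, so the numbers were not taken to pair samples, and number 3 did not correlate best with its own number. With a replicate block 4522 genes were called, 2172 and 2350 by direction, and 4267 with the block and only these 6 libraries, an alternative added after seeing the data.

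Depth was 28.7 M counts or more in each library. Under simulation at 3 libraries per group most 2-fold changes, which lie on the fold threshold, were not called.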
